A study of Mus musculus with 42 samples.

Results

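Chromosome 2 of the mouse carries one of the largest clusters of odorant receptor genes in the genome. The cluster was taken here as the receptors with a GENCODE M21 symbol made of Olfr and a number that lie on GRCm38 chr2:85000000-91000000, leaving out Olfr1015 and Olfr1016. That rule found 199 genes, 19.4% of the 1026 numbered receptors in the table. They reach from Olfr987, which starts at base 85330779, to Olfr1272, which ends at base 90292841. All 199 are annotated as protein coding, 129 on the minus strand and 70 on the plus strand, with a median gap of 14.6 kb between neighbours and a widest gap of 163 kb.

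Odorant receptors are G-protein-coupled receptors of the cilia of olfactory sensory neurons. Each mature neuron expresses a single receptor gene from a single allele, and all receptors signal through the olfactory G protein, adenylyl cyclase 3 and a cyclic nucleotide-gated channel. The receptors of this cluster belong to class II, the larger of the mammalian classes, and arose largely by local duplication, so that neighbours are often close relatives.

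Ribosomes carrying phosphorylated S6, a mark of recent neuronal activity, were pulled down from main olfactory epithelium with an antibody against phosphorylated S6, and RNA was sequenced from the pulldown and from the input of each pool. All mice were male C57BL/6NCrl, 8 to 12 weeks old, and 4 epithelia were combined per pool. Mice met no odour (5 pools, replicates 1, 2, 3, 4 and 6) or, for 1 h, the odour of normal chow diet (NCD, 6 pools), of a bacon-flavoured diet (BFD, labelled Bacon, 5 pools) or of a lard-based high-fat diet (HFD, 5 pools). The design asks which receptors become enriched on phosphorylated ribosomes when an odour is present. The 3 odour groups share the same 5 unexposed pools, so their changes are not independent of each other. A pool is bulk tissue, in which fewer neurons expressing a receptor and less RNA per neuron cannot be told apart.

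The 42 libraries held 24839555 to 36781553 estimated counts, of which the cluster took 7912 to 19814 in a pulldown and 9109 to 15234 in an input. Ribosomal RNA genes took 19.3 to 28.2% of the counts in the inputs without odour and 9.39 to 19.0% in the other inputs, and 11.7 to 23.3% against 8.20 to 17.6% in the pulldowns. The pulldown of BFD replicate 1 stood apart, with log2 pulldown-to-input ratios that spread less over all tested genes (SD 0.601) than in any other pool (0.742 to 1.08). Markers of mature sensory neurons summed to 14340 to 18332 CPM (counts scaled to the size of the library) in the inputs, and all 7 were present. Markers of other cells were present too, with 4776 to 6804 CPM for 5 sustentacular markers and 323 to 719 CPM for 5 erythroid markers.

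Many members have a close relative within the cluster. The coding sequence of a member was at a median 85.2% identical to that of its closest relative in the cluster, and 136 members had a relative at 80% or more. That relative was the next gene in order for 73 members and lay within 5 places for 154.

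Even so, most of a member's transcript is its own. The share of 31-base words in a member's transcripts that also occur in another gene had a median of 7.43%, was above 10% for 86 members and was 0 for 11. It was 0.0473% for Olfr1180, 5.10% for Olfr1254 and 9.65% for Olfr1260, against 12.6% for Olfr1217, 15.1% for Olfr1195 and 31.7% for Olfr1193. Reads from a shared word are divided between genes by estimation, and 45.0% of the members' values were not whole.

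Over all 8 groups of libraries 160 members passed the filter on low counts (154 over the inputs alone), and the 160 carried 99.2% of the cluster's input CPM. The 39 others summed to at most 232 counts over all 42 libraries, with a median of 115. Per kb of gene model the highest input level belonged to Olfr1257 (5.55 CPM per kb), followed by Olfr1264 (5.23), Olfr1197 (4.93), Olfr1110 (3.86) and Olfr140 (3.13). In CPM, Olfr1264 had 22.6 ± 3.34 (SD, n = 21), Olfr1257 15.3 ± 1.59 and Olfr1197 14.3 ± 2.32, and the last of these overlapped in their spread. The 10 highest members took 33.8% of the cluster's input CPM. At the ends of the cluster, Olfr987 had 1.23 ± 0.390 CPM (SD, n = 21), close to the median of 1.13 CPM over tested members, and Olfr1272, which did not pass the filter, had 0.120 ± 0.0828.

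Without odour, the cluster as a whole lay below the input in the pulldown. The median fitted log2 ratio of pulldown to input was -0.37 over the 160 members, -0.16 over the 704 other numbered receptors and 0.01 over all 21168 genes. Class I receptors of chromosome 7, a separate large cluster counted among those other receptors, had a median of -0.59 over 95 genes. At an adjusted p under 0.001 in edgeR's quasi-likelihood test, 9 members were higher in the pulldown (19.8% of all genes were) and 18 were lower (16.0% of all genes were). Among the other receptors the test called 96 higher and 72 lower. As a share of all receptor counts, the cluster held 13.9 ± 0.464% of the pulldowns and 16.2 ± 0.317% of the inputs (SD, n = 21 each), and the ranges, 13.1 to 14.7% and 15.7 to 16.8%, did not overlap.

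The ratio changed with position along the cluster. In the first 3 windows of 1 Mb, from 85 to 88 Mb, the median log2 ratio without odour was -0.81 (19 members tested), -0.77 (33 members) and -0.70 (32 members). It was -0.32 between 88 and 89 Mb (34 members), 0.35 between 89 and 90 Mb (33 members) and -0.05 in the last window (9 members). Of the 18 members that were lower in the pulldown, 16 started before 89 Mb, and of the 9 that were higher, 7 started at or after it. Of the tested members, 118 started before 89 Mb and 42 at or after it. With a term for the ribosomal RNA share, 3 members before 89 Mb and 1 at or after it were lower, and 1 and 5 were higher. That boundary was chosen after the values were seen and the difference between windows is given as a description.

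**Figure D1:**
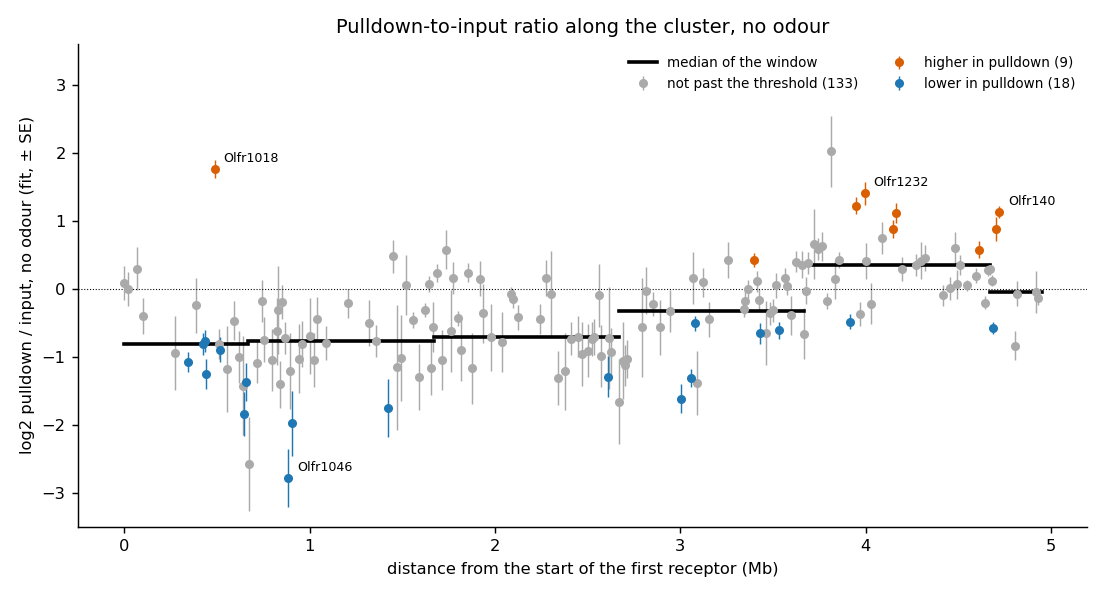
Fitted log2 ratio of pulldown to input without odour for the 160 tested receptors (points, ± SE) against the distance in Mb from the start of the first receptor, with the median of each 1-Mb window as a black bar. Coloured points passed an adjusted p of 0.001; the window medians stay between -0.81 and -0.70 in the first 3 windows and reach 0.35 in the fifth.

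The medians of single pools, taken from the same ratios, also differed between windows. Between 89 and 90 Mb the median log2 ratio of the members was above 0 in all 21 pools, from 0.18 to 0.99, and between 86 and 87 Mb it was above 0 in 0 of 21 pools, from -0.97 to -0.13. Those were the windows with the most and the fewest pools above 0. The median was above 0 in 1 pool between 85 and 86 Mb and in 5 between 87 and 88 Mb. It was above 0 in 10 pools between 88 and 89 Mb and in 17 between 90 and 91 Mb. Over the 704 other receptors the pool medians ran from -0.25 to 0.22. Distal members were also more abundant, with a median input of 2.38 CPM for the 42 tested members starting at or after 89 Mb and 0.890 CPM for the 118 before it. Among members at 1 CPM or more in the inputs the medians were 0.28 (32 distal members) and -0.39 (54 proximal members), against 0.00 over 376 other receptors at that level. The medians on either side of 89 Mb were -0.62 and 0.29, -0.54 and 0.37 with TMM factors from receptors alone, and -0.60 and 0.12 once the fit held a term for each library's ribosomal RNA share.

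**Figure D2:**
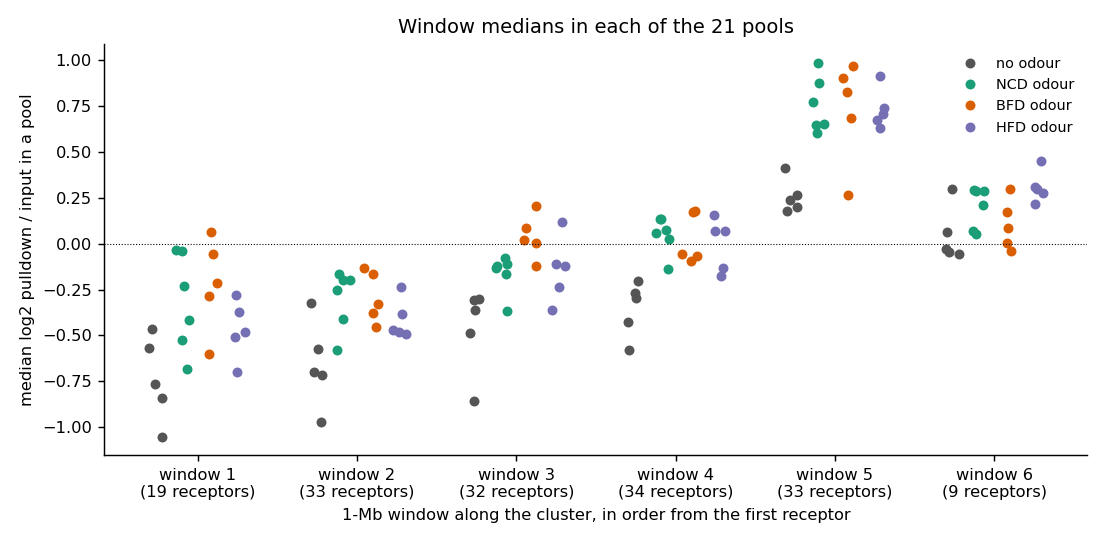
Median log2 ratio of pulldown to input over the tested receptors of each 1-Mb window (x axis, in order from the first receptor), one point per pool, coloured by odour. In the fifth window all 21 pools lie above 0, and in the second all lie below 0.

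Olfr1018, a receptor of the proximal end, was the only member called higher in its window, where 3 members had a ratio above 0. It was the most enriched of the members past the threshold. In the 5 unexposed pools its input level was 3.11 ± 0.508 CPM and its pulldown level 10.6 ± 1.75 CPM (SD, n = 5). The log2 ratios of replicates 1, 2, 3, 4 and 6 were 1.73, 1.72, 1.81, 2.15 and 1.34, so every pool was above 0, as were all 21 pools of the study. The fit gave a log2 ratio of 1.76 (SE 0.13, adjusted p = 6.5e-11). Its closest relative in the cluster, Olfr1270, was 60.5% identical and none of its 31-base words occurs in another gene. Olfr1018 lies at chr2:85818479-85824221 on the plus strand.

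Most of the other enriched members were distal. Olfr1229 had unexposed log2 ratios of 1.65, 1.12, 1.10, 0.93 and 1.27 and a fitted value of 1.22 (SE 0.13, adjusted p = 7.6e-09). Its closest relative Olfr1232, 3 places away, 88.1% identical and of lower level (0.993 ± 0.210 CPM in the inputs, SD, n = 21), had 1.40, 1.03, 1.51, 1.36 and 1.46, with a fitted value of 1.41 (SE 0.17, adjusted p = 1.2e-07). Both were above 0 in all 21 pools. Olfr1242 (1.11, SE 0.15) and Olfr1265 (0.89, SE 0.18) followed, and the call of Olfr1265 was lost without no-odour replicate 1 (adjusted p = 0.0017) or replicate 3 (adjusted p = 0.0015). A receptor of very low level, Olfr1223, had a higher fitted value of 2.02 (SE 0.52) but did not pass (adjusted p = 0.0017) at 0.141 CPM in the inputs; it was named after its values were seen.

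Olfr140 and Olfr1264 lie 2 places apart at the distal end and moved in opposite directions. They are each other's closest relatives, 80.8% identical in coding sequence. The longest run of coding bases that they share without a difference is 54 bases, shorter than a full-length read.

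Only 2.85% of the 31-base words of Olfr140 and 3.13% of those of Olfr1264 occur in another gene. Without odour Olfr140 had 10.5 ± 1.34 CPM in the inputs and 22.9 ± 3.10 CPM in the pulldowns, while Olfr1264 had 21.9 ± 2.71 CPM in the inputs and 14.8 ± 2.79 CPM in the pulldowns (SD, n = 5). The log2 ratios of Olfr140 were 1.42, 0.98, 0.95, 1.36 and 0.92, and those of Olfr1264 were -0.61, -0.40, -0.89, -0.49 and -0.50. Every pool of the study was above 0 for the first and below 0 for the second. The fitted values were 1.13 (SE 0.09, adjusted p = 1.1e-10) and -0.58 (SE 0.08, adjusted p = 1.7e-06). Under the odours neither passed the threshold.

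**Figure D3:**
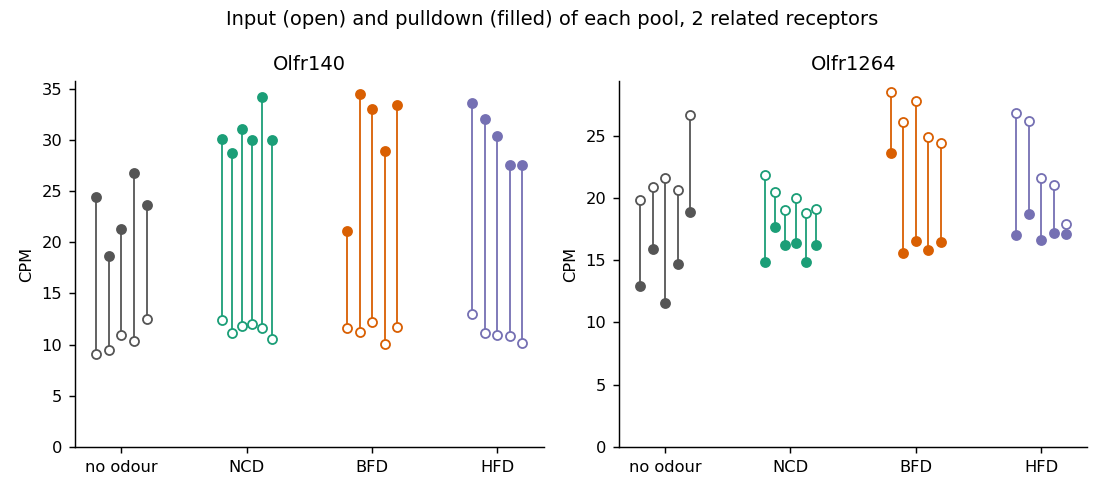
CPM in the input (open circles) and the pulldown (filled circles) of each of the 21 pools for Olfr140 (left) and Olfr1264 (right), joined by a line per pool and grouped by odour. The pulldown is above the input in all pools for Olfr140 and below it in all pools for Olfr1264.

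One more receptor was called in the direction opposite to its closest relative, with Olfr1197 at 0.42 (SE 0.10, adjusted p = 0.00082) and Olfr1200 at -0.65 (SE 0.15, adjusted p = 0.00072), which are 88.9% identical and share a run of 179 bases; Olfr1200 was named after its values were seen. The closest relative of Olfr1197 itself is Olfr1196, 97.0% identical and with a log2 ratio of -0.0023 (SE 0.13, adjusted p = 0.99), which holds the same run. Olfr1197 shares 25.4% of its words with other genes, so the division of reads between these genes is uncertain. Over the 56 pairs at 80% identity or more in which one member is the closest relative of the other, the median difference in log2 ratio was 0.43, against 0.69 over all 12720 pairs of tested members. Over the 36 such pairs under 80% it was 0.41.

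Of the 6 lowest ratios past the threshold, 4 belonged to proximal members with few reads. Olfr1046 (chr2:86214987-86219314, minus strand) had 47, 20.4, 52.7, 75.7 and 60.7 counts in the unexposed inputs and 1, 8, 9, 3 and 12 in the pulldowns, which did not overlap. Its fitted log2 ratio was -2.78 (SE 0.43, adjusted p = 4.2e-06), and all 21 pools were below 0. It shares 14.7% of its words, nearly all with the pseudogene Olfr1050-ps1. Olfr1048, 2 places away, had -1.98 (SE 0.48), Olfr1090 -1.76 (SE 0.42) and Olfr1031 -1.37 (SE 0.28). Olfr1032, at 0.264 CPM in the inputs, had a fitted value of -2.57 (SE 0.69) but did not pass (adjusted p = 0.0024); it was named after its values were seen. The calls of Olfr1048 and Olfr1090 were each lost without no-odour replicate 1, 3, 4 or 6 and without several pools of other groups, and that of Olfr1031 without no-odour replicate 1, 2 or 4.

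Olfr1030 and Olfr1176 were lower at a better depth. Olfr1030, next to Olfr1031, had log2 ratios of -2.88, -2.51, -1.02, -1.94 and -1.10 in the unexposed pools and a fitted value of -1.84 (SE 0.32, adjusted p = 2.7e-05). Olfr1176 had -0.92, -1.67, -1.81, -2.33 and -1.06 and a fitted value of -1.62 (SE 0.21, adjusted p = 4.4e-07). Both were below 0 in all 21 pools, and less than 0.05% of the words of either is shared. With a term for the ribosomal RNA share 4 members were called lower in place of 18, and Olfr1046, Olfr1030 and Olfr1176 were not among them (log2 ratios of -2.11, -1.85 and -1.16). Without no-odour replicate 4 the count was 9. How many of all genes were called in those fits is not given here.

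Under the odours the median change of the members lay above that of all genes, as did that of the other receptors, and 6 members rose past the threshold. The median change of the log2 ratio from no odour was 0.33 under NCD, 0.35 under BFD and 0.36 under HFD over the 160 members, 0.21, 0.28 and 0.25 over the other receptors, and -0.0046, 0.00 and -0.01 over all genes. With TMM factors from receptors alone the median of all genes moved to -0.24, -0.31 and -0.30 and that of the members to 0.09, 0.03 and 0.08. Class I receptors had medians of 0.46, 0.54 and 0.78. Of the members 122, 128 and 122 had a value above 0, and single members ranged from -0.78 to 3.05 under NCD, from -1.22 to 4.18 under BFD and from -1.51 to 1.69 under HFD. The extremes at the top under NCD and BFD were Olfr141, named after its values were seen, with SEs of 1.38 and 1.49.

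**Figure D4:**
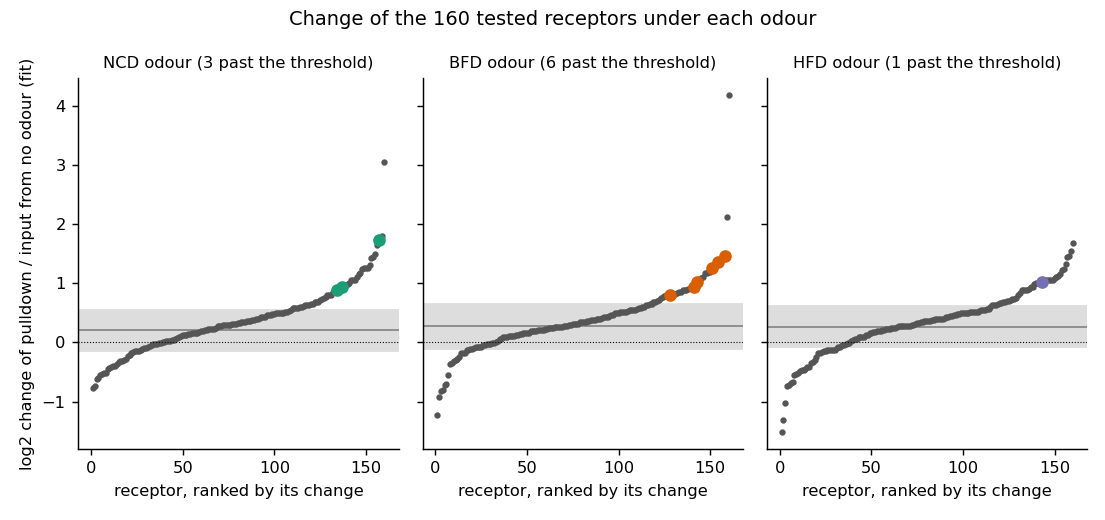
Fitted log2 change of the pulldown-to-input ratio from no odour for the 160 tested receptors, ranked within each odour. Large coloured points passed an adjusted p of 0.001 (3, 6 and 1), the grey band spans the quartiles of the other numbered receptors and the grey line is their median.

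The median change under NCD, BFD and HFD odour was 0.29, 0.59 and 0.39 in the first window, 0.36, 0.32 and 0.43 in the fifth, and 0.19, 0.05 and 0.20 in the last.

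NCD odour raised 3 of the 160 members (0.359% of all genes were raised) and lowered 0 (0.165% of all genes were lowered). BFD odour raised 6 (2.47% of all genes) and lowered 0 (1.32% of all genes), and HFD odour raised 1 (0.699% of all genes) and lowered 0 (0.520% of all genes). Among the other 704 receptors 14, 27 and 11 were raised and 0 lowered under each odour. At an unadjusted p under 0.05, 39, 33 and 39 members were higher and 0, 0 and 3 lower in edgeR. Of all 21168 genes 2939, 3644 and 3045 were higher and 2966, 3470 and 3228 lower at that level in edgeR. Of the other 704 receptors 142, 159 and 147 were higher and 17, 14 and 18 lower. At an adjusted p under 0.001 DESeq2 lowered 0 members, and edgeR with receptor-only TMM factors lowered 1. All 6 members raised under any odour start between 88.4 and 90.0 Mb, in windows that hold 67 of the 160 tested members. That range was drawn after the values were seen. The median input of those windows was 2.03 and 2.36 CPM, against 1.23, 0.616 and 0.669 CPM in the first 3 windows and 4.16 CPM in the last. Whether this level bears on where the calls fell was not tested.

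Of the 3 members past the threshold under NCD odour, Olfr1254 had the largest rise. Its log2 ratio was 0.02, 0.11, -0.73, 0.18 and 0.36 without odour, and 1.50 at the lowest, 1.61 at the median and 2.23 at the highest of the 6 NCD pools. Under BFD odour it was 1.01, 1.74, 1.79, 1.57 and 1.12, and under HFD odour 0.23, 0.67, 0.76, 0.82 and -0.13. Every NCD and BFD pool was above every unexposed pool, whereas only 3 of the 5 HFD pools were.

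The fitted change of Olfr1254 was 1.73 under NCD (SE 0.22, adjusted p = 1.4e-05) and 1.47 under BFD (SE 0.23, adjusted p = 0.00012), and 0.48 under HFD (SE 0.23, adjusted p = 0.16), which did not pass. The pulldown level moved from 2.83 ± 0.637 CPM without odour (SD, n = 5) to 7.24 ± 0.646 CPM under NCD odour (n = 6), while the inputs had 2.78 ± 0.184 and 2.19 ± 0.431 CPM. Tested directly, HFD minus NCD was -1.26 (SE 0.21, adjusted p = 0.0077) and HFD minus BFD was -0.99 (SE 0.22, adjusted p = 0.097), neither past 0.001. Olfr1254 lies at chr2:89787325-89793619 on the minus strand. Its closest relative, Olfr1247, is 81.6% identical.

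Olfr1260 (chr2:89974340-89981586, plus strand), the most abundant of the raised members at 11.1 ± 1.28 CPM in the inputs (SD, n = 21), rose under NCD and BFD odour. Its log2 ratio was -0.04, -0.35, -0.01, -0.57 and -0.05 without odour, 0.55, 0.67 and 1.05 at the lowest, median and highest of the NCD pools, and 0.43, 0.90, 0.88, 0.46 and 1.02 in the BFD pools. The HFD pools had 0.40, 0.49, 0.74, 0.26 and 0.54, so all 16 exposed pools were above all unexposed pools. The fitted change was 0.93 under NCD (SE 0.13, adjusted p = 9.3e-05), 0.94 under BFD (SE 0.14, adjusted p = 7.1e-05) and 0.69 under HFD (SE 0.14, adjusted p = 0.0018), the last not past the threshold; it passed without the pulldown and input of BFD replicate 1 (adjusted p = 0.00072).

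Olfr1180 was the member raised under every odour. It was below input in each unexposed pool (-0.49, -0.28, -0.75, -0.71 and -0.29), a difference that itself passed (-0.51, SE 0.11, adjusted p = 0.00038). Under NCD odour the lowest, median and highest pool had 0.11, 0.43 and 0.52. The BFD pools had 0.26, 0.55, 0.23, 0.44 and -0.05, and the HFD pools 0.69, 0.72, 0.65, 0.24 and 0.28.

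No exposed pool overlapped with the unexposed pools of Olfr1180, and the fitted changes were 0.90 under NCD (SE 0.15, adjusted p = 0.00056), 0.80 under BFD (SE 0.15, adjusted p = 0.00064) and 1.03 under HFD (SE 0.15, adjusted p = 9.8e-05). The first was lost without any one of no-odour replicates 1 to 4 or NCD replicates 1, 2, 3, 5 or 6, where the adjusted p ran up to 0.0034, and the second without no-odour replicate 1, 3 or 4 or BFD replicate 2, 3 or 4, with an adjusted p up to 0.0031. Over all 30 alternative fits the adjusted p of the BFD change reached 0.072. The HFD call was kept in every fit without 1 pool, and was lost when the unexposed and HFD pools were fitted alone (adjusted p = 0.0025). Its closest relative, Olfr1179 next to it, is 69.9% identical. Olfr1180 lies at chr2:88410649-88419151 on the minus strand.

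**Figure D5:**
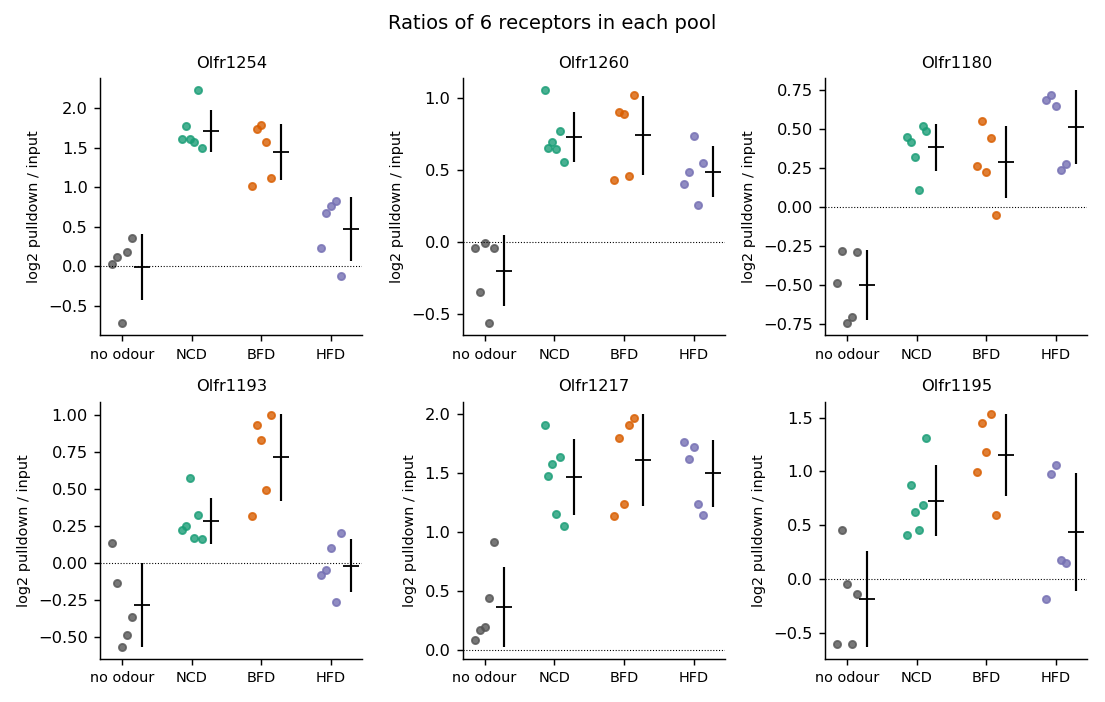
Log2 ratio of pulldown to input in each pool, by odour, for the 6 receptors raised under at least 1 odour; bars give the mean and SD of the group and the y axes differ between panels. All exposed pools lie above all unexposed pools for Olfr1260, Olfr1180 and Olfr1217.

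Olfr1193, Olfr1217 and Olfr1195 passed under BFD odour. For Olfr1217 (chr2:89021336-89032065, minus strand) the unexposed pools had 0.09, 0.17, 0.20, 0.44 and 0.92, the BFD pools 1.13, 1.80, 1.24, 1.91 and 1.96, and the HFD pools 1.76, 1.62, 1.72, 1.24 and 1.14. The NCD pools had 1.05, 1.52 and 1.91 at the lowest, median and highest, so that none of the 16 exposed pools overlapped with the unexposed ones.

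The fitted changes of Olfr1217 were similar in size under the 3 odours, 1.26 under BFD (SE 0.22, adjusted p = 0.00037), 1.16 under HFD (SE 0.22, adjusted p = 0.0014) and 1.11 under NCD (SE 0.21, adjusted p = 0.0021), and the BFD change alone passed. It was lost without no-odour replicate 1 or 2 or BFD replicate 2, 4 or 5, with an adjusted p up to 0.0018, and the HFD change passed without BFD replicate 1 (adjusted p = 0.00065) or no-odour replicate 6 (adjusted p = 0.00057). Over all 30 alternative fits the adjusted p of the BFD change of Olfr1217 reached 0.0052. Its near copy Olfr1219, 2 places away and named for that reason after its values were seen, is 92.5% identical, and its changes, 0.59 under BFD, 0.88 under HFD and 0.69 under NCD (SE 0.22, 0.22 and 0.21), did not pass. The pair shares 146 coding bases without a difference, inside which reads cannot be assigned to either gene by sequence.

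Olfr1193 and Olfr1195 are neighbours on opposite strands, at chr2:88675628-88681143 and chr2:88681455-88689187, and each shares words with the pseudogene Olfr1191-ps1 (31.7 and 3.89% of them). Olfr1193 had 0.14, -0.13, -0.56, -0.48 and -0.36 without odour and 0.32, 0.94, 0.83, 0.49 and 1.00 under BFD odour, with a fitted change of 1.02 (SE 0.18, adjusted p = 0.00029). Olfr1195 had -0.60, 0.46, -0.04, -0.60 and -0.14 without odour and 1.00, 1.45, 1.18, 1.53 and 0.60 under BFD odour, with a fitted change of 1.36 (SE 0.26, adjusted p = 0.00067). For both, all BFD pools were above all unexposed pools.

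Under NCD odour Olfr1193 changed by 0.58 (SE 0.17, adjusted p = 0.025) and Olfr1195 by 0.93 (SE 0.26, adjusted p = 0.018), and under HFD odour by 0.28 (SE 0.18, adjusted p = 0.31) and 0.64 (SE 0.27, adjusted p = 0.11), none past the threshold. The BFD call of Olfr1193 was lost without no-odour replicate 4 or BFD replicate 2, 3 or 5 (adjusted p up to 0.0016), and that of Olfr1195 without no-odour replicate 1, 3, 4 or 6, NCD replicate 5, or BFD replicate 2, 3 or 4 (adjusted p up to 0.0032). Over all 30 alternative fits the adjusted p under BFD reached 0.024 for Olfr1193 and 0.14 for Olfr1195.

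The BFD count moved with single pools. It fell from 6 to 2 without BFD replicate 2, to 3 without BFD replicate 3 or 4 or no-odour replicate 1 or 4, and to 0 with a term for the ribosomal RNA share or when the unexposed and BFD pools were fitted alone. The sizes of the 6 changes stayed positive in all these fits. The HFD count rose from 1 to 3 without BFD replicate 1 and to 2 without no-odour replicate 6, and fell to 0 when the unexposed and HFD pools were fitted alone. The share of all genes called in these fits is not given here, so the shifts are not read as particular to the cluster.

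Tested directly against each other, the odours differed in 0 of the 160 members. Of all genes 0.00945% differed between BFD and NCD odour, 0.0236% between HFD and NCD and 0.0378% between HFD and BFD. At an unadjusted p under 0.05, 1533, 979 and 1693 of all 21168 genes and 17, 12 and 19 members differed in edgeR. At an adjusted p under 0.001 DESeq2 called 1 member, Olfr1254 between HFD and NCD.

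In the inputs 0 of 154 members changed under an odour, while 0.998% of all genes changed under NCD, 13.7% under BFD and 0.963% under HFD. Of 684 other receptors 0, 4 and 1 changed. At an unadjusted p under 0.05, 7297, 9665 and 7135 of all 20451 genes and 18, 20 and 22 members changed. At an adjusted p under 0.001 DESeq2 called 1 of the members. The smallest adjusted p-values belonged, named after they were seen, to Olfr1173 under BFD (log2 0.96, SE 0.22, adjusted p = 0.0012) and under HFD to Olfr1204 (log2 0.72, SE 0.14, adjusted p = 0.0019). The median change of the members' inputs was 0.02, 0.00 and 0.04.

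Genes that serve all receptors were measured in the same fits. Of 17 odour transduction genes, 9 were higher and 0 lower in the unexposed pulldown (median 0.26), among them Gng13, a G-protein subunit (0.90, SE 0.17), and Adcy3, the adenylyl cyclase of the cilia (0.77, SE 0.06). Under the odours 0 passed with NCD and HFD, and with BFD Gng13 (1.33, SE 0.24, adjusted p = 0.00061) and Omp, the olfactory marker protein (0.64, SE 0.10, adjusted p = 0.00019), rose. Of 19 genes of receptor choice and trafficking 13 were higher and 2 lower without odour (median 0.33), and 0 passed under any odour.

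Of 14 activity-dependent genes, 10 were higher and 0 lower in the unexposed pulldown (median 0.81). Under BFD odour S100a5, a calcium-binding protein of active sensory neurons (1.16, SE 0.17, adjusted p = 9.1e-05), and Btg2 rose and Arc fell (-0.97, SE 0.20, adjusted p = 0.000999), and under HFD odour Arc fell (-1.12, SE 0.20, adjusted p = 0.00060). None passed under NCD odour. Of the markers of epithelial zones, 2 of 3 dorsal genes were lower and 1 of 3 ventral genes, Plxna1, was higher in the unexposed pulldown, and under BFD odour 1 dorsal gene rose.

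Markers of other cells also differed between pulldown and input, and their part in the members' ratios was not tested. Without odour 4 of 5 sustentacular and 3 of 3 horizontal basal cell markers were lower in the pulldown (medians -1.28 and -2.29), and 5 of 5 erythroid and 5 of 5 macrophage and neutrophil markers were higher (2.11 and 1.54). Of 7 mature and 5 immature neuron markers, 4 and 4 were higher and 0 lower. Of 5 markers of dividing progenitors 2 were higher and 0 lower, and of 5 gland, 4 microvillous and 4 respiratory ciliated markers 1 was higher and 1 lower in each. The summed level of the 5 gland markers ran from 6168 to 8356 CPM in unexposed pulldowns and from 12219 to 22183 CPM in exposed ones. In the inputs it was 6846 to 13512 CPM without odour, 7976 to 8548 under NCD, 12268 to 14727 under BFD and 10063 to 10965 under HFD. Of the 5 only Bpifb9b, at a mean of 8979 CPM in the inputs, rose under each odour (1.87, 1.85 and 1.93). The remaining gland markers changed by -0.71 (Muc5b, BFD) to 0.34 (Aqp5, HFD) and did not pass. Of the other markers, 1 microvillous gene rose and 1 immature neuron gene fell under each odour, and under BFD odour 2 mature neuron genes, Omp and Gng13, rose and 1 progenitor gene fell.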

How the data were processed

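Per the methods and the submitters' processing notes, the authors amplified the RNA, sequenced it in pairs, ran the nf-core rnaseq pipeline and quantified genes with Salmon on GRCm38. The deposited values are estimated counts per gene, not normalized, and 30.9% of them were not whole. Whether strand was used in quantification is not given in the sources used here. Dividing pulldowns by inputs and testing with DESeq2 1.26 came later in the study and did not enter these values. Gene names, positions and coding sequences came from GENCODE M21, which named 44118 of 44674 genes.

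Counts were rounded, genes kept by filterByExpr (minimum count 10, 8 groups, 21168 genes, 20451 for inputs alone) and scaled by TMM. The model had a term for each of the 21 pools and a pulldown term for each odour, and edgeR 4.0.16 fitted it by robust quasi-likelihood under R 4.3.3 with limma 3.58.1. P-values are two-sided, adjusted by Benjamini-Hochberg over all genes tested, and called under 0.001. Log2 ratios of single pools are differences of log2 CPM with a prior count of 2. The pairing of pulldown and input comes from the methods; over genes, pulldowns deviated from their group's mean with a median correlation of 0.014 to their own inputs and -0.0042 to inputs of other pools. Of 90 pairs of libraries of one group none differed by less than sampling noise (lowest chi-square per degree of freedom 3.33). The labels do not say whether pools came from separate cohorts, and p-values measure the spread between these pools.

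The members, lists and tests were chosen with earlier results of these data known. Named members are the 6 highest and 6 lowest called ratios without odour, up to 10 called under each odour (or the 3 smallest p-values where fewer than 3 were called), those called between odours or in inputs, the 5 highest inputs per kb and the ends of the cluster. Other settings tried were size factors in place of TMM, a full DESeq2 1.42.0 fit, other filters, no pool term, a replicate term, compared groups only, receptor-only TMM factors, the ribosomal RNA share as a covariate, an adjusted p of 0.05, members sharing over 10% of 31-base words left out, pseudogenes left out, and each pool left out. Members at 1 CPM or more in the inputs were looked at after seeing the data. RefSeq start windows were found for 166 members but only 7 lay within 100 bases of the GENCODE start, so promoters were not used here. Sequences of the members' coding stretches are not reported here.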

Additional observations from a re-analysis of the deposited data

Results flagged for a closer look

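The log2 pulldown-to-input ratio of Olfr1254 in NCD replicate 5 was 2.23, while the other 5 NCD pools had 1.50 to 1.77, a gap of 0.631 of the group's range. It was the single pool to stand apart by Dixon's test among 36 groups of pools examined for the named members, and chance gives about 1 in 20 groups. Without that pool Olfr1254 still passed the threshold under NCD odour.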

How the results depend on the processing

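Of 718 alternative values for the named members, 602 stayed on the same side of the threshold, 107 no longer passed, 9 newly passed and 0 changed direction. Olfr1018, Olfr1232, Olfr1229, Olfr140 and Olfr1242 without odour and Olfr1254 and Olfr1260 under NCD passed in every one. Most of the alternative values came from fits that left out 1 of the 21 pools, including pools outside the groups compared. At an adjusted p of 0.05, 21 members were higher and 46 lower without odour, against 6571 and 6032 of all 21168 genes. Under NCD, BFD and HFD 17, 21 and 12 members were raised, against 1438, 2542 and 1623 of all genes. Of the members 2 were lowered, 1 differed between odours and 20 changed in the inputs. Of all genes 1336, 2226 and 1700 were lowered under the 3 odours. In the inputs 4799, 8147 and 4436 of 20451 genes changed. With the compared groups fitted alone 7 members were lower without odour, and 0 were raised under BFD and 0 under HFD. With a term for ribosomal RNA 4 were lower without odour, 0 were raised under BFD and 2 under HFD. DESeq2 raised 5 under NCD and 3 under HFD, and called 1 between odours and 1 in the inputs. Without a filter 3 were raised under HFD and 1 differed between odours. With receptor-only TMM factors 2 were raised under BFD and 1 was lowered. Leaving out members that share over 10% of words left 3 raised under BFD. Leaving out pseudogenes could remove no member, as all are annotated as protein coding. Without a term for the pool 2 were raised under HFD. The share of all genes called in each of these refits is not given here, so the counts are not read as particular to the cluster.

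The replicate number as a block left 3 of 6 raised under BFD, and moved no other count by over 1.5 times. Pools of the same number in different odours correlated at -0.214 to 0.112 in their deviations (27 pairs), so the numbers were not taken to pair pools. Leaving out 1 pool at a time gave 6 to 10 members higher and 9 to 19 lower without odour, 2 to 4 raised under NCD, 2 to 7 under BFD and 1 to 3 under HFD, 0 lowered, 0 between odours and 0 to 1 in the inputs, the 1 appearing without no-odour replicate 3 or HFD replicate 2 or 5. The causes of these shifts were not tested, and the counts over all genes in the same fits are not given here. A tested member had a median of 35.4 counts in an input library and 33.0 in a pulldown, which limits what could be called among the low members.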
